A study of Mus musculus with 11 samples.

Results

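Matricellular proteins, tenascins and fibronectin form a small set of secreted matrix genes. Their expression was followed in fibroblasts taken from mammary tissue of MMTV-PyMT mice and from normal mammary glands of FVB/n mice. The set holds 10 genes out of 19938 tested, listed by gene name: the tenascins Tnc, Tnn and Tnxb, the thrombospondins Thbs1 and Thbs2, fibronectin (Fn1), periostin (Postn), Sparc, versican (Vcan) and fibulin 2 (Fbln2). All 10 were measured, each by 1 probe set that carries no other gene symbol. The data are 11 Affymetrix Mouse Gene 1.0 ST arrays, and each array is 1 cohort of pooled mice. Normal mammary glands (arrays D2 and D5, at 8 weeks) came from FVB/n mice, and hyperplasia (D6, D7 and D12, at 4 weeks), carcinoma (D3, D4 and D10, at 9 weeks) and advanced carcinoma (D8, D9 and D11, at 12 weeks) came from MMTV-PyMT mice. In this model the MMTV promoter drives the polyoma middle T oncogene in mammary epithelium, so the fibroblasts themselves are not the intended target of the transgene. Fibroblasts of every group were sorted as CD140a+ and F4/80- cells, with EpCAM- added in the labels, and were not cultured. CD140a is the protein of Pdgfra. Carcinoma and advanced carcinoma fibroblasts together are called cancer-associated fibroblasts (CAFs; 6 arrays) and were compared with normal and hyperplasia fibroblasts together (5 arrays). Each stage has its own age, so stage and age cannot be told apart. Only the normal mice lack the transgene, so in comparisons with normal the transgene cannot be told apart from stage and age either.

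Matricellular proteins sit in the extracellular matrix without being its main structural fibres. They bind integrins, growth factors and fibrillar proteins, and change how cells attach, spread and respond to signals. Fibronectin, by contrast, is itself a fibre-forming glycoprotein on which collagens and other matrix proteins assemble. In the mammary gland these proteins are made largely by stromal fibroblasts, and tenascin C, periostin and versican are well known from wound healing and from tumour stroma.

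The promoter sequence of 2 members is shown because both hold the same short TATA-like motif, while Tnc passed the test in CAFs and Thbs2 did not. The sequences are RefSeq windows of GRCm38.p6, 250 bases that end just before the annotated start, printed 5′ to 3′ on the strand of the gene, with TATAAA or its reverse complement in capitals. Tnc lies on the minus strand at chr4:64047016-64047265, and Thbs2 on the minus strand at chr17:14694263-14694512.
Tnc: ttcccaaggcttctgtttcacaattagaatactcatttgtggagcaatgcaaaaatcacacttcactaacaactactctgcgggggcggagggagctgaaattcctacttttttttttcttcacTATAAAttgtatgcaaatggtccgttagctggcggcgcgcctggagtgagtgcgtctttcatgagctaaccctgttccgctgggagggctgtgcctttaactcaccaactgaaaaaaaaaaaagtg
Thbs2: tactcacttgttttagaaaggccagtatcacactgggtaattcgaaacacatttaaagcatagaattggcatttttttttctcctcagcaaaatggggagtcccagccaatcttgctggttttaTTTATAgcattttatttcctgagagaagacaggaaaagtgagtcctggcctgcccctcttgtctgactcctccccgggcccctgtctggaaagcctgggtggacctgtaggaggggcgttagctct
The match began 126 bases before the start in both windows, on the strand of the gene for Tnc and on the other strand for Thbs2. RefSeq windows of 300 bases, with 50 bases after the start added, were found for 8 of the 10 members, in 10 windows. TATAAA, searched on both strands, was in 4 of these windows (Tnc, where both annotated windows held it, Thbs2 and Postn) and in 13.6% of all 32851 windows. GGGCGG was in 4 of the members' windows (Tnc, Vcan and Fbln2) and in 35.7% of all windows. TGANTCA was in 1 window (Tnxb) against 7.81% of all, and GGAATG in 1 (Tnn) against 14.7% of all. In the Tnc window shown the matches to TATAAA and GGGCGG do not overlap. These are matches of letters, not binding sites.

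Some arrays stood apart before any comparison. For every probe set, the D2 and D11 values mirror each other around the average of the remaining 9 arrays, to within 0.000144 on the log2 scale, so that a gene high in normal D2 is low in advanced carcinoma D11 by the same amount. Neither the labels nor the methods name a step that does this. The main tests below, over all 11 arrays, count D2 and D11 as independent. Their n, SE, p-values and counts of arrays do not allow for this link. Carcinoma D4 had the lowest mean of 11 fibroblast markers, 9.51 on the log2 scale, against 10.74 to 11.09 in the other 5 CAF arrays and 11.01 to 11.39 in the normal and hyperplasia arrays. Fewer fibroblasts in the sorted cells and less RNA of these genes per fibroblast cannot be told apart in bulk samples. The whole lists of cell markers also differed between the groups. In CAFs, 10 of 10 macrophage markers were higher, with list means of 6.36 to 8.41 in CAF arrays and 4.67 to 6.17 in normal and hyperplasia arrays. Luminal epithelial markers were higher for 11 of 12 genes, with list means of 8.34 to 9.51 in CAF arrays and 5.97 to 7.48 in normal and hyperplasia arrays. Of the basal epithelial markers 3 of 5 were higher. Of the fibroblast markers 2 of 11 were lower in CAFs, and without D4 this count was 8 of 11 (median difference -0.35, against -0.59 with all arrays). Lymphocyte (6 of 8) and adipocyte (4 of 6) markers were lower in CAFs, and without D2 and D11 these counts were 0 of 8 and 2 of 6. With all arrays, 1 of 8 endothelial markers was lower and 1 of 7 pericyte markers was called in each direction. By the same test, 12% of all genes were higher in CAFs and 12.8% lower. The macrophage, luminal and basal counts were the same without D4 and without D2 and D11. The part of these cell types in the results below was not tested.

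In CAFs against normal and hyperplasia fibroblasts, Tnc and Thbs1 were higher and the other 8 members did not pass the test (limma, Benjamini-Hochberg adjusted p under 0.05 over all genes). The 2 higher members stand against 12% of all genes called higher, and the 0 lower members against 12.8% called lower; with each array centred on its median these shares were 10.5% and 20.3%, and the members called were again Tnc and Thbs1. The median difference over the 10 members was -0.16 on the log2 scale, beside -0.04 over all genes, with 3 members above 0 and 7 below. This direction rests on D4: without it the median was 0.09, beside -0.04 over all genes, with 7 members above 0 and 3 below. Without D2 and D11 the median was -0.23, again with 3 above and 7 below. Both calls held without D4, beside 11.4% of all genes higher and 12.2% lower, and neither without D2 and D11, beside 9.51% higher and 9.2% lower. Without all 3 arrays, an alternative chosen after seeing the data, Tnc was the 1 member called, beside 8.63% of all genes higher and 8.58% lower. The values of all 10 members overlapped between the 2 groups, whereas CAF arrays lay wholly above the others for 7.77% of all genes and wholly below them for 7.14%.

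**Figure D1:**
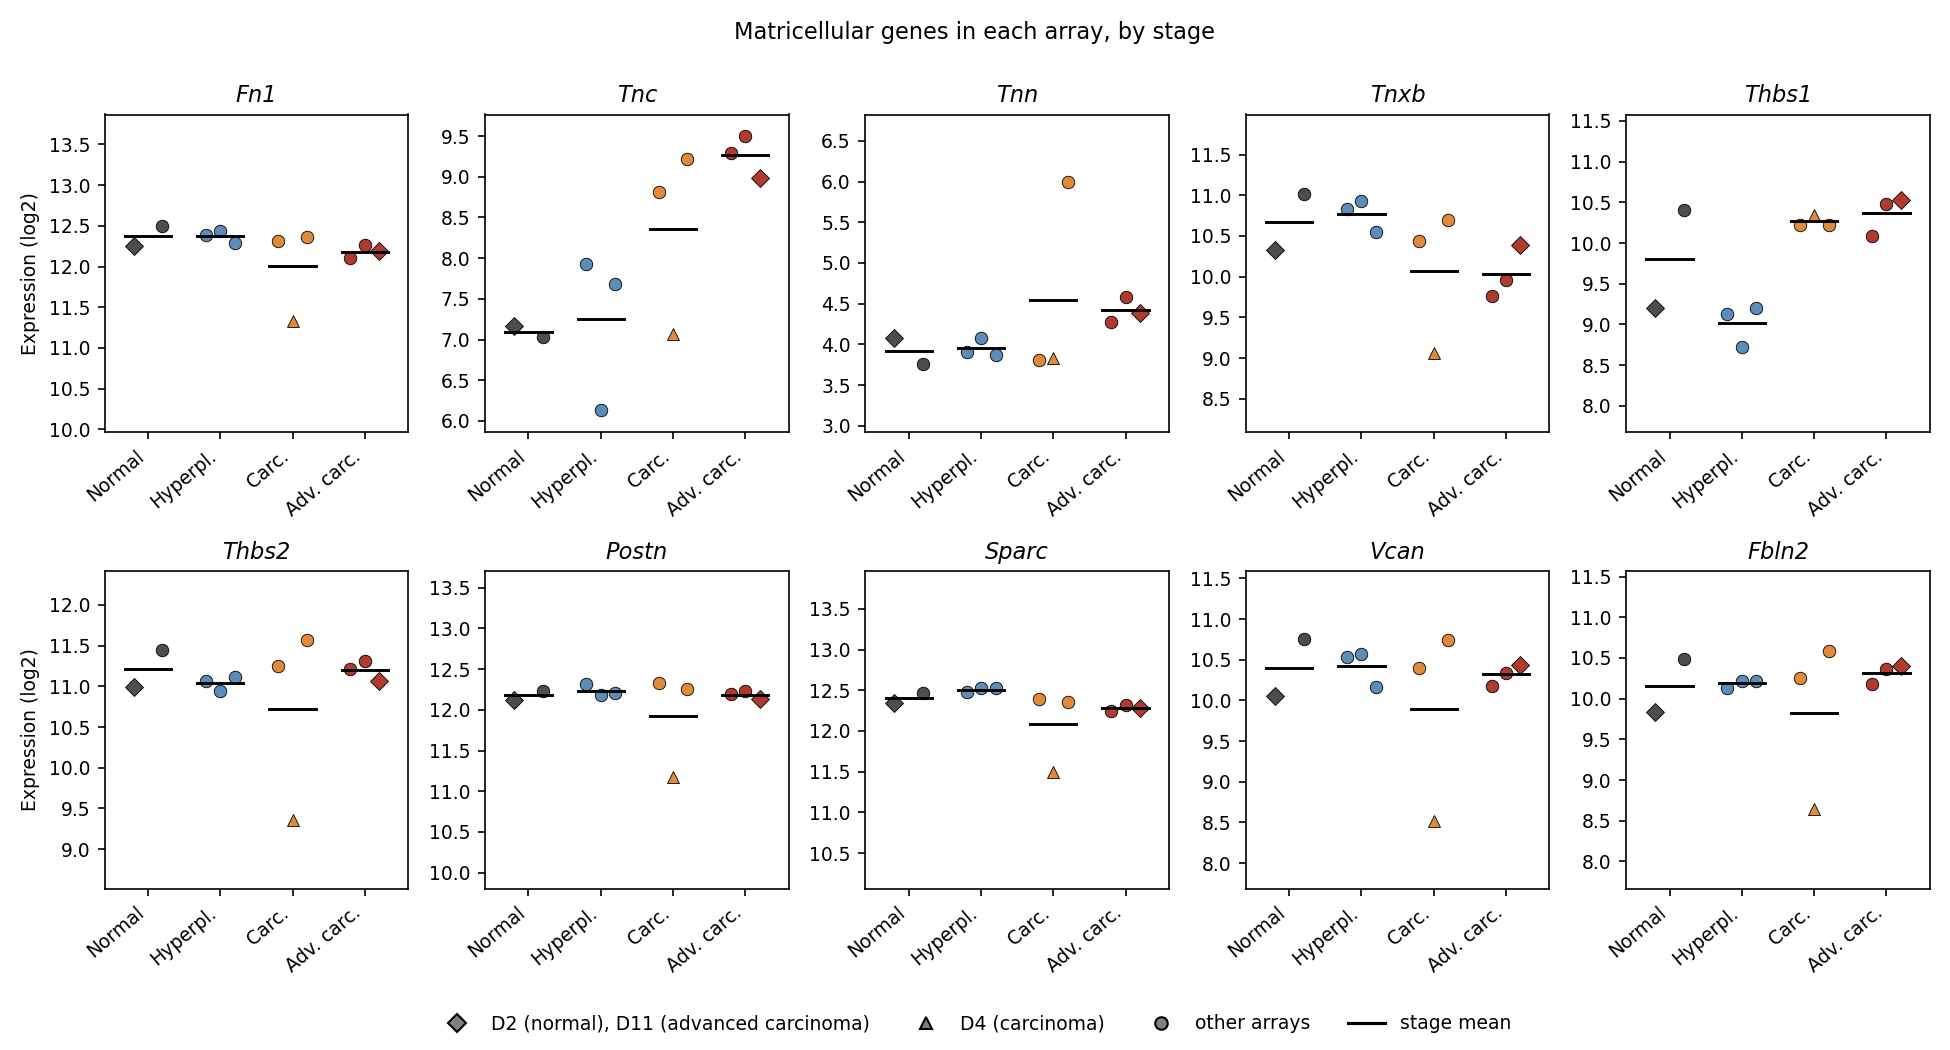
Expression (log2, y axis, the same height in log2 units in every panel) of the 10 genes in each of the 11 arrays, by stage (x axis). Points are arrays, black lines are stage means, diamonds mark D2 and D11, and triangles mark D4; Tnc is at 8.81 to 9.50 in 5 of the 6 CAF arrays and at 7.07 in D4, and D4 is the lowest array for 7 of the 10 genes.

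Tenascin C, an anti-adhesive glycoprotein that is sparse in most resting adult tissues, showed the largest difference of the 10 genes in CAFs. Tnc was at 7.16 and 7.04 on the log2 scale in normal arrays D2 and D5, at 7.93, 6.13 and 7.69 in hyperplasia arrays D6, D7 and D12, at 8.81, 7.07 and 9.21 in carcinoma arrays D3, D4 and D10, and at 9.30, 9.50 and 8.99 in advanced carcinoma arrays D8, D9 and D11. The 5 CAF arrays other than D4 lay above every normal and hyperplasia array, whereas D4 lay among them. In CAFs, Tnc averaged 8.81 ± 0.89 (SD, n = 6), against 7.19 ± 0.70 in normal and hyperplasia fibroblasts (n = 5). This is a difference of 1.62 on the log2 scale (SE 0.44, 95% interval 0.65 to 2.60), or a fold change of 3.08, with a limma adjusted p of 0.0215. Without D4 the difference was 1.97 (adjusted p = 0.00136). Without D2 and D11 it was 1.58 and no longer passed (adjusted p = 0.0696). Without all 3 of these arrays the difference was 2.01 (adjusted p = 0.00864). That alternative was chosen after seeing the data and drops the CAF array with low Tnc. Hyperplasia D7, the lowest array, also bears on the call, since the adjusted p was 0.0543 without it. D4, the CAF array with low Tnc, had list means of 7.97 for macrophage, 9.51 for luminal and 9.51 for fibroblast markers. D8 and D9, the arrays highest in Tnc, had macrophage list means of 8.25 and 8.41. The part of these cell types in Tnc was not tested.

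By stage, the Tnc difference of advanced carcinoma was 2.01 against hyperplasia (SE 0.59, adjusted p = 0.0502) and 2.16 against normal (SE 0.65, adjusted p = 0.0906), and neither passed in the limma fit over 4 stages. The 3 advanced carcinoma arrays were nevertheless all above the 5 arrays of these groups. Without D4, a carcinoma array that enters these fits through the shared spread, both differences were the same. Both then passed, with an adjusted p of 0.00760 against hyperplasia and 0.0142 against normal. Over all genes, the number called rose without D4 as well. It went from 2897 to 5017 of 19938 against hyperplasia and from 1118 to 3143 against normal. Against hyperplasia, carcinoma differed by 1.11 (adjusted p = 0.248), and against normal by 1.26 (adjusted p = 0.342). Without D4 these differences were 1.76 (adjusted p = 0.0556) and 1.91 (adjusted p = 0.115). Hyperplasia and normal fibroblasts differed in Tnc by 0.15 (95% interval -1.33 to 1.63), an interval wide enough to hold more than a 2-fold difference in either direction.

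Tenascin W (Tnn), known from developing bone and from the stroma of some tumours, lay between 3.76 and 4.59 in 10 of the 11 arrays. Carcinoma D10 stood apart at 5.99. The probe set is dim, with a mean of 4.23 beside a median of 5.64 over the means of all genes, and the values do not say whether it was above background. Normal arrays were at 4.08 and 3.76, hyperplasia arrays at 3.91, 4.07 and 3.87, the other carcinoma arrays D3 and D4 at 3.81 and 3.83, and advanced carcinoma arrays at 4.28, 4.59 and 4.39. The 3 advanced carcinoma arrays were thus above all 5 normal and hyperplasia arrays by a small margin. The difference in CAFs was 0.54 (SE 0.33, 95% interval -0.19 to 1.27) and did not pass (limma adjusted p = 0.252). Without D10 it was 0.24 (adjusted p = 0.269). Advanced carcinoma differed from hyperplasia by 0.47 (adjusted p = 0.543). Without D10, which enters this fit through the shared spread, the same difference passed (adjusted p = 0.0280).

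Tenascin X (Tnxb), which links collagen fibrils in loose connective tissue and whose loss in people causes a form of Ehlers-Danlos syndrome, ran the other way to Tnc. Tnxb was at 10.33 and 11.02 in normal arrays, at 10.83, 10.93 and 10.55 in hyperplasia arrays, at 10.43, 9.07 and 10.70 in carcinoma arrays, and at 9.76, 9.95 and 10.39 in advanced carcinoma arrays. D4, D8 and D9 were below all normal and hyperplasia arrays, and the other 3 CAF arrays lay among them. CAFs averaged 10.05 ± 0.59 (SD, n = 6), against 10.73 ± 0.29 in normal and hyperplasia fibroblasts (n = 5), a difference of -0.68 (SE 0.26, 95% interval -1.26 to -0.10) that did not pass (limma adjusted p = 0.0812). The unadjusted p was 0.0252. Without carcinoma D10 the adjusted p was 0.0363, and without D4 the difference was -0.48 (adjusted p = 0.0918). Advanced carcinoma differed from hyperplasia in Tnxb by -0.73 (adjusted p = 0.233). Without D4, which enters this fit through the shared spread, the same difference passed (adjusted p = 0.0357), beside 25.2% of all genes called. Advanced carcinoma differed from normal by -0.64 (adjusted p = 0.433). This passed in 1 of 23 alternatives, the one without D2, D11 and D4 (-1.16, adjusted p = 0.00823), which was chosen after seeing the data and leaves normal as the array D5 alone, assumed to vary like the other groups.

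Thrombospondin 1, which activates latent TGF-beta and restrains angiogenesis through CD36 and CD47, was the other member to pass. Thbs1 was at 9.20 and 10.40 in normal arrays, at 9.12, 8.72 and 9.21 in hyperplasia arrays, at 10.23, 10.35 and 10.23 in carcinoma arrays, and at 10.09, 10.48 and 10.53 in advanced carcinoma arrays. All 6 CAF arrays were above the 3 hyperplasia arrays and normal D2, and normal D5 lay among the CAF arrays. CAFs averaged 10.32 ± 0.17 (SD, n = 6), against 9.33 ± 0.63 in normal and hyperplasia fibroblasts (n = 5). The difference was 0.98 (SE 0.24, 95% interval 0.45 to 1.51), a fold change of 1.98, with a limma adjusted p of 0.0139. D4, the lowest array for 7 of the 10 members, was not low in Thbs1, and without it the difference was 0.98 (adjusted p = 0.0219). Without D2 and D11 the difference was 0.91 and did not pass (adjusted p = 0.0571), and without D2, D11 and D4 it was 0.89 (adjusted p = 0.0887).

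In the stage comparisons Thbs1 passed against hyperplasia and not against normal. Carcinoma was higher than hyperplasia by 1.25 (SE 0.27, adjusted p = 0.0268), a fold change of 2.37, and advanced carcinoma was higher than hyperplasia by 1.35 (SE 0.27, adjusted p = 0.0137), a fold change of 2.55. Thbs1 was the 1 member called higher in each of these comparisons, beside 4.89% of all genes called higher in carcinoma and 8.52% in advanced carcinoma (4.48% and 7.49% with each array centred on its median). The call in carcinoma did not hold without hyperplasia D6 (adjusted p = 0.0802), hyperplasia D7 (0.0851), carcinoma D3 (0.0583) or carcinoma D4 (0.0546), and the call in advanced carcinoma did not hold without hyperplasia D7 (0.0562) or advanced carcinoma D9 (0.0615). Against normal the Thbs1 difference was 0.46 in carcinoma (adjusted p = 0.453) and 0.56 in advanced carcinoma (adjusted p = 0.315). The 2 normal arrays differ by more than this, and hyperplasia was at -0.79 against normal with an unadjusted p of 0.0295 and an adjusted p of 0.999. The advanced carcinoma difference from normal thus rests on which normal array is used: it was -0.12 without D2 and D11, -0.04 without D2 and 1.16 without D5 (adjusted p = 0.0845).

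Thrombospondin 2, the close relative that also restrains angiogenesis and is needed for orderly collagen fibrils in mice, passed in none of the comparisons. Thbs2 was at 10.99 and 11.44 in normal arrays, at 11.06, 10.95 and 11.12 in hyperplasia arrays, at 11.25, 9.36 and 11.57 in carcinoma arrays, and at 11.21, 11.31 and 11.07 in advanced carcinoma arrays. Apart from D4, all arrays lay within 0.63 of each other. The CAF difference was -0.15 (95% interval -0.89 to 0.59, limma adjusted p = 0.770), and without D4 it was 0.17 (adjusted p = 0.305).

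**Figure D2:**
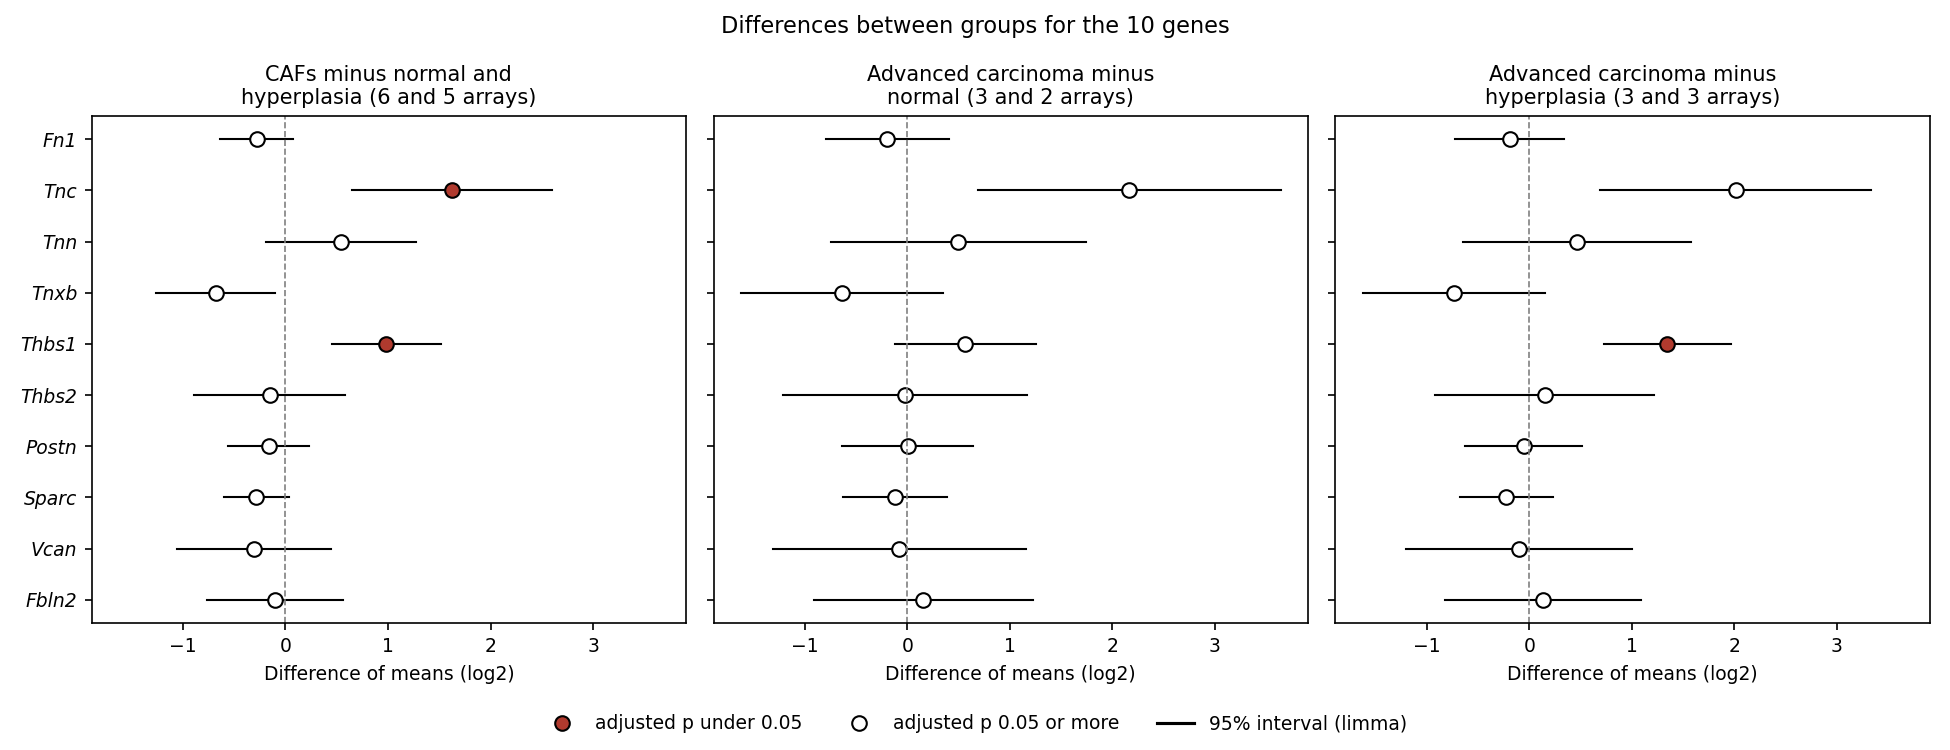
Difference of group means (log2, x axis) with its 95% interval from limma for the 10 genes (y axis), in 3 comparisons. Filled points passed an adjusted p of 0.05: Tnc (1.62) and Thbs1 (0.98) in CAFs against normal and hyperplasia, none in advanced carcinoma against normal, and Thbs1 (1.35) in advanced carcinoma against hyperplasia.

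Fibronectin, periostin and Sparc spanned 0.40 or less on the log2 scale over the 10 arrays other than D4. Their mean levels were at percentiles 99.96, 99.94 and 99.97 of all genes. The values do not say whether signals this bright were near the upper limit of the array, where differences could be understated. Fn1 was at 12.25 and 12.50 in normal arrays, at 12.39, 12.44 and 12.29 in hyperplasia arrays, at 12.31, 11.33 and 12.37 in carcinoma arrays, and at 12.10, 12.26 and 12.19 in advanced carcinoma arrays. The CAF difference was -0.28 (95% interval -0.64 to 0.08, limma adjusted p = 0.230), and without D4 it was -0.13 (adjusted p = 0.193). The 3 lowest arrays in Fn1 were D4, D8 and D11, all CAFs, and D9 lay just above normal D2.

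Periostin, a ligand of alpha v integrins that marks activated fibroblasts in many tissues, was at 12.12 and 12.24 in normal arrays, at 12.31, 12.19 and 12.21 in hyperplasia arrays, at 12.33, 11.18 and 12.25 in carcinoma arrays, and at 12.19, 12.23 and 12.13 in advanced carcinoma arrays. The 10 arrays other than D4 spanned 0.21 on the log2 scale, and D4 was 0.94 below the lowest of them. The CAF difference in Postn was -0.16 (95% interval -0.56 to 0.23, limma adjusted p = 0.540), and without D4 it was 0.01.

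Sparc, a collagen-binding protein that takes part in the processing of procollagen, was at 12.34 and 12.46 in normal arrays, at 12.48, 12.52 and 12.52 in hyperplasia arrays, at 12.39, 11.50 and 12.35 in carcinoma arrays, and at 12.24, 12.32 and 12.28 in advanced carcinoma arrays. The 3 advanced carcinoma arrays and D4 were below all 5 normal and hyperplasia arrays. The difference in CAFs was -0.28 (95% interval -0.60 to 0.03, limma adjusted p = 0.172), and without D4 it was -0.15 (adjusted p = 0.0602). Advanced carcinoma differed from hyperplasia by -0.23 (adjusted p = 0.472). With D4 out, which enters this fit through the shared spread, the same difference passed (adjusted p = 0.0206), beside 25.2% of all genes called. With D2 and D11 also out it did not (adjusted p = 0.0548).

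Versican and fibulin 2 bind each other and the hyaluronan-rich and elastic parts of the matrix. Vcan, a large proteoglycan that carries chondroitin sulphate and binds hyaluronan, was at 10.05 and 10.75 in normal arrays, at 10.53, 10.56 and 10.16 in hyperplasia arrays, at 10.40, 8.52 and 10.75 in carcinoma arrays, and at 10.18, 10.34 and 10.44 in advanced carcinoma arrays. D4 was 1.52 below every other array. The CAF difference was -0.31 (95% interval -1.06 to 0.44, limma adjusted p = 0.541), and without D4 it was 0.01. Fbln2, which also binds fibronectin and tropoelastin, was at 9.84 and 10.48 in normal arrays, at 10.14, 10.21 and 10.22 in hyperplasia arrays, at 10.26, 8.64 and 10.59 in carcinoma arrays, and at 10.18, 10.37 and 10.40 in advanced carcinoma arrays. D4 was again the lowest, by 1.20. The CAF difference was -0.10 (95% interval -0.77 to 0.56, limma adjusted p = 0.831), and without D4 it was 0.18 (adjusted p = 0.276).

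**Figure D3:**
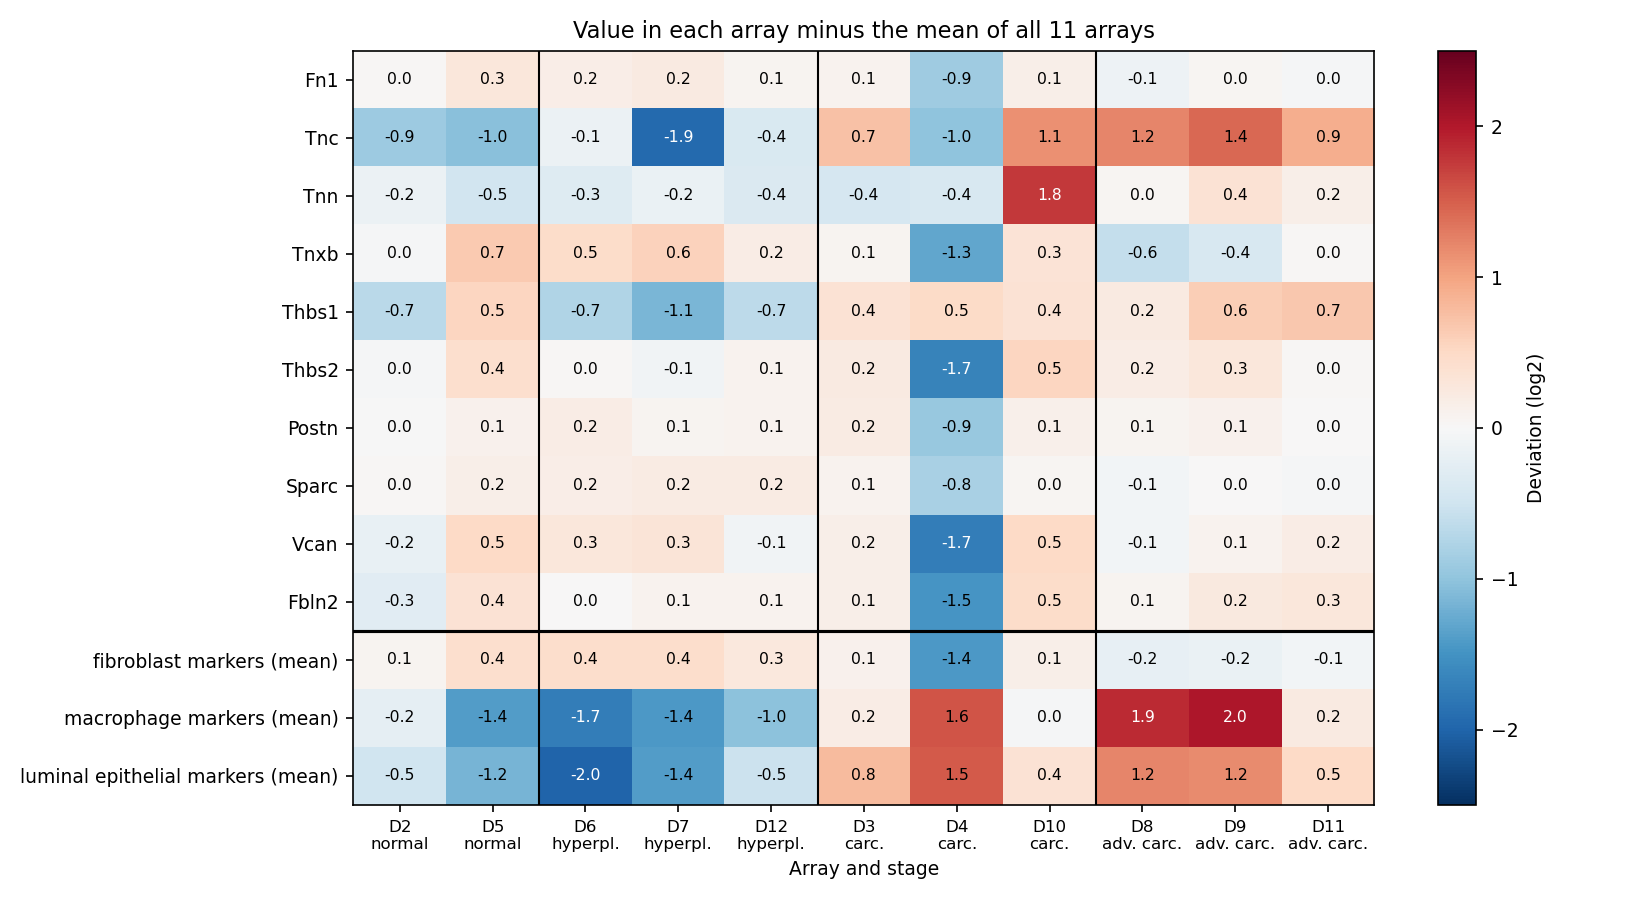
Value of each gene in each array minus its mean over all 11 arrays (colour and printed number, log2), for the 10 genes and the means of 3 cell marker lists (rows), with arrays ordered by stage (columns). In D4 the fibroblast marker mean is 1.4 below its average with Fn1, Tnxb, Thbs2, Postn, Sparc, Vcan and Fbln2 below theirs by 0.8 to 1.7, while Thbs1 is 0.5 above its own.

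In D4, 7 members were thus lower than in any other array, by 0.70 (Tnxb) to 1.59 (Thbs2), together with the fibroblast markers, while its luminal list mean was the highest of the 11 arrays. In Tnn (3.83) and Thbs1 (10.35) D4 lay within the range of the other CAF arrays.

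The remaining stage comparisons called none of the 10 genes by limma. Between advanced carcinoma and normal, 5.61% of all genes were called in either direction, and 1 member (Tnc) had an unadjusted p under 0.05. Between carcinoma and normal, 0.938% of all genes and 0 members were called, and 0 members had an unadjusted p under 0.05. Between hyperplasia and normal, and between advanced carcinoma and carcinoma, 0% of all genes were called, with 841 and 1124 genes at an unadjusted p under 0.05. At that unadjusted threshold Thbs1 was the 1 member in hyperplasia against normal, and 0 members passed it in advanced carcinoma against carcinoma. Contrasts without moderated variances also called 0 members in these 4 comparisons. The largest difference between advanced carcinoma and carcinoma was in Tnc, at 0.90 (95% interval -0.42 to 2.22, adjusted p = 0.893), and without D4 it was 0.25. Without D4, which enters through the shared spread, the 5017 genes called between advanced carcinoma and hyperplasia made up 25.2% of all genes. The 4 members among them were Tnc and Thbs1, which were higher, and Tnxb and Sparc, which were lower.

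The relatives of the 10 genes were taken from lists of 64 symbols, of which 60 were measured. Among 20 family relatives measured of 21 listed, 1 was higher and 4 were lower in CAFs, beside 12% of all genes called higher and 12.8% called lower. Their median difference was -0.12, and it was -0.02 without D4 and -0.28 without D2 and D11. Smoc1, a calcium-binding relative of Sparc, was at 6.39 to 7.72 in CAF arrays and at 4.02 to 4.55 in normal and hyperplasia arrays, a difference of 2.97 (SE 0.21, limma adjusted p = 9.75e-05). Tgfbi, which shares the fasciclin domains of periostin, was at 9.07 to 9.75 in CAF arrays and at 10.23 to 10.65 in normal and hyperplasia arrays, a difference of -1.11 (adjusted p = 0.000291). The testicans Spock2 (-1.54) and Spock3 (-1.46), proteoglycans with a Sparc-like domain, were lower too, with an adjusted p of 0.00446 each. The groups did not overlap for any of these 4 genes, as for 7.77% of all genes with CAFs above and 7.14% with CAFs below. These 4 were named for the smallest p of the list in this comparison, so their separation is not independent of that choice. The other lower relative was the elastic fibre protein Fbln5 (-0.84, adjusted p = 0.0323), named after its value was seen. Smoc1, Tgfbi, Spock2 and Spock3 passed without D4, without D2 and D11, and without all 3, and Fbln5 did not pass without D2 and D11 (adjusted p = 0.0579).

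CCN proteins are matricellular regulators of adhesion and growth factor signalling. Of the 6 measured of 7 listed with osteopontin, which is not analysed here, 2 were higher in CAFs and 0 lower. Over all genes 12% were called higher and 12.8% lower. The median difference of these 6 genes was 0.36 (0.67 without D4). Ccn2 (connective tissue growth factor), a target of TGF-beta and YAP, was at 7.81 to 9.10 in CAF arrays and at 7.42 to 8.50 in normal and hyperplasia arrays, a difference of 0.89 (SE 0.24, limma adjusted p = 0.0224). Ccn4, a target of Wnt signalling, differed by 1.18 (SE 0.38, adjusted p = 0.0418). Ccn6 differed by -0.12 (adjusted p = 0.126) and Ccn5 by 0.37 (adjusted p = 0.306), and neither passed. Without D4, 4 of the 6 CCN genes were higher, beside 11.4% of all genes, and without D2 and D11 the count was 0, beside 9.51% of all genes.

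Elastic fibre and microfibril genes were divided, with 2 higher and 3 lower of 11 measured of 12 listed, and a median difference of -0.49, which was -0.19 without D4. The shares of all genes called were 12% higher and 12.8% lower. Ltbp2, a microfibril protein that binds fibrillin but not latent TGF-beta, was at 6.38 to 7.58 in CAF arrays and at 4.15 to 4.62 in normal and hyperplasia arrays, a difference of 2.66 (SE 0.18, limma adjusted p = 9.75e-05). Its relatives that do bind latent TGF-beta split, with Ltbp3 higher by 0.28 (adjusted p = 0.0189), Ltbp1 at -0.72 (adjusted p = 0.0252) and, named after its value was seen, Ltbp4 at -0.69 (adjusted p = 0.0471). Emilin2, an elastin microfibril glycoprotein, was lower, with a difference of -1.19 (adjusted p = 0.00699). Without D2 and D11 Ltbp3 did not pass (adjusted p = 0.0613).

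Of 9 hyaluronan genes measured of 10 listed, 1 was higher and 0 lower, beside 12% of all genes called higher and 12.8% lower. Their median difference was 0.00. Cemip, which takes part in the breakdown of hyaluronan, was at 3.59 to 6.82 in CAF arrays and at 3.67 to 3.86 in normal and hyperplasia arrays, a difference of 1.73 (SE 0.47, limma adjusted p = 0.0215). It passed without D4 (2.11) and did not without D2 and D11 (1.75, adjusted p = 0.0629). Tnfaip6 (-0.58, adjusted p = 0.374), Hyal2 (0.12, adjusted p = 0.400) and Hapln1 (-0.05, adjusted p = 0.466) did not pass.

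Receptors of these proteins were measured for all 14 genes listed, with 4 higher, 1 lower and a median difference of -0.03, beside 12% of all genes called higher and 12.8% lower. Without D4, 5 were higher and 3 lower, with a median of 0.06. The integrin chains Itgb6 and Itgb8, which pair with the alpha v chain and release latent TGF-beta, were higher by 1.09 (SE 0.14, limma adjusted p = 0.000480) and 1.54 (SE 0.24, adjusted p = 0.00135). Cd44, a receptor of hyaluronan, was at 8.26 to 8.81 in CAF arrays and at 7.15 to 8.25 in normal and hyperplasia arrays, a difference of 1.06 (adjusted p = 0.00231). Sdc4, the syndecan that binds fibronectin with integrins, was higher by 0.63 (adjusted p = 0.0140). The groups did not overlap for Itgb6, Itgb8 and Cd44, where CAF arrays lay above the others as for 7.77% of all genes. They too were named for a small p in this comparison, so their separation is not independent of that choice. Cd36, a receptor of thrombospondins, was lower, with a difference of -1.03 (adjusted p = 0.0455), and was named after its value was seen. The receptors Itgb6, Itgb8, Cd44 and Sdc4 passed without D4, without D2 and D11, and without all 3 arrays, and Cd36 did not pass without D2 and D11 (adjusted p = 0.160). Itgb6 is mainly an epithelial integrin chain, and it was higher in the arrays in which luminal markers were higher, whose part was not tested.

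**Figure D4:**
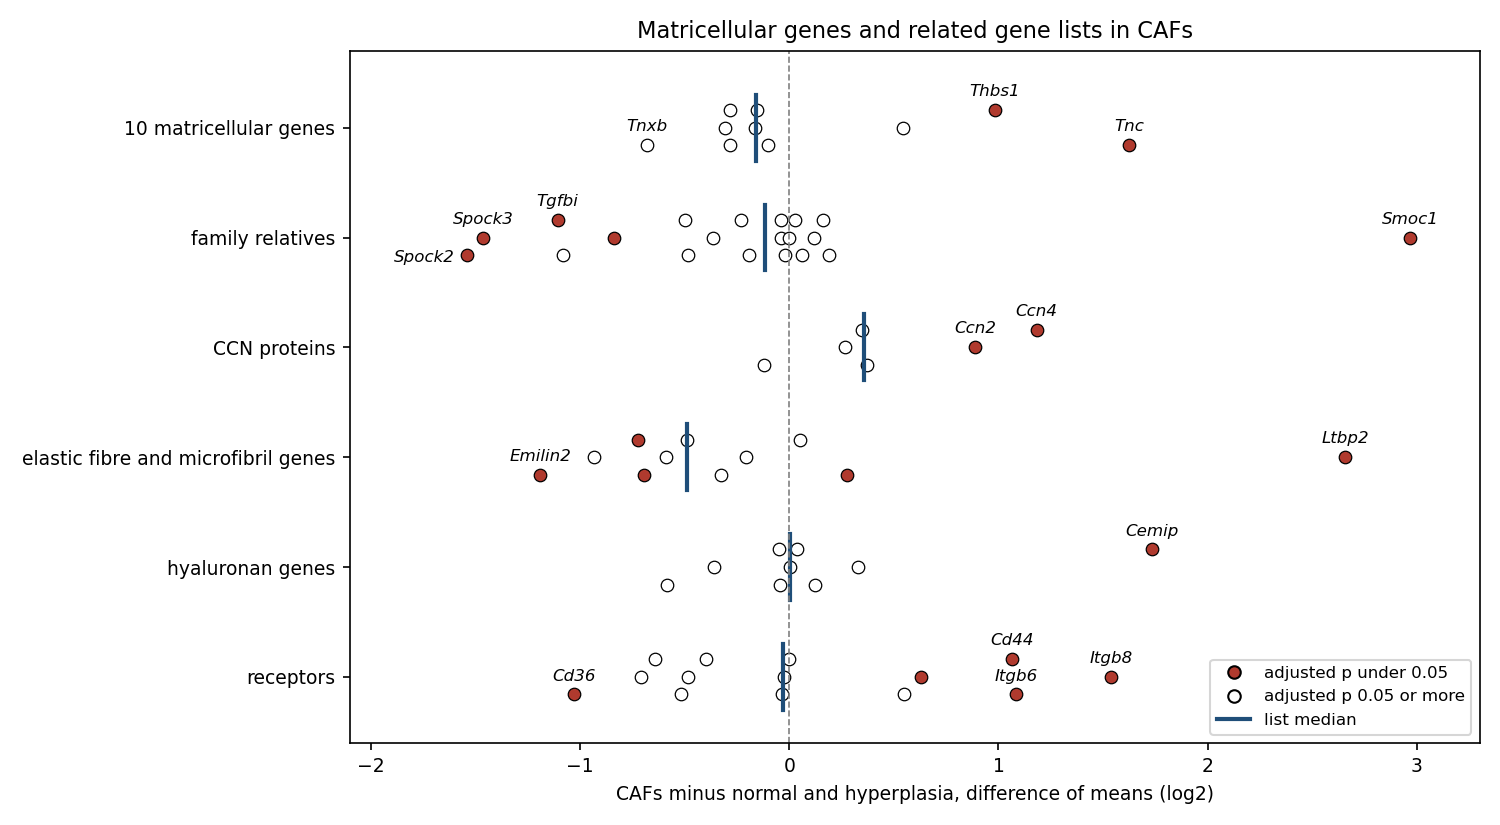
Difference between CAFs and normal and hyperplasia fibroblasts (log2, x axis) for the 10 genes and 5 related lists (y axis), with points for genes, filled where the adjusted p was under 0.05, and bars for list medians. Points are shifted up and down only to separate them; Smoc1 (2.97), Ltbp2 (2.66), Cemip (1.73) and Tnc (1.62) lie furthest to the right.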

How the data were processed

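The data are 11 arrays of sorted mouse mammary fibroblasts. The authors normalised them by the robust multi-array average method (Partek Genomics Suite 6.5), and the deposited values, used here without further normalization, are log2 expression of 35399 probe sets. Robust multi-array averaging adjusts the probes of all arrays to 1 distribution, so each value is relative within its array set. The deposited probe set values do not share 1 distribution exactly, with array medians from 5.28 to 5.39. Probe sets with 1 gene symbol were kept (21789), with the brightest per gene (19938 genes). Symbols came from the platform annotation, and the files name no genome build. The 10 genes, the related lists and the cell marker lists were chosen with earlier results of these data known. All members are named, and from each related list the 4 genes with the smallest p in CAFs. Tests used limma 3.58.1 (R 4.3.3), in a fit with 4 stages and, for CAFs, a fit with 2 groups, each over all 11 arrays. P-values were adjusted by Benjamini-Hochberg over all genes, separately in the 7 comparisons, and called under 0.05. The methods name a one-way ANOVA with an unadjusted p under 0.05 and a fold over 1.5. As alternatives, ANOVA contrasts without moderated variances were called at the adjusted p. Separately, the threshold in the methods was applied to the limma fits, so the study's full rule was not repeated. With other normalizations, filters, fits and left-out arrays there were 23 alternatives in all. Counts of the related and marker lists with arrays left out were added after seeing the data. The number of arrays limits the precision, and no array was dropped or imputed unless stated.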

Additional observations from a re-analysis of the deposited data

Results flagged for a closer look

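Of 20 groups of values tested for an array far from its group (10 genes in 6 CAF arrays and in 5 normal and hyperplasia arrays), 9 had one, where chance gives about 1 in 20. In carcinoma D4 the CAF values far below the rest were 11.33 for Fn1, 7.07 for Tnc, 9.36 for Thbs2, 11.18 for Postn, 11.50 for Sparc, 8.52 for Vcan and 8.64 for Fbln2. These 7 belong to 1 array and are not independent of each other. Carcinoma D10 was far above the other CAF arrays in Tnn, at 5.99. Normal D5 was far above the other normal and hyperplasia arrays in Thbs1, at 10.40.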

How the results depend on the processing

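The count of members called in CAFs (2) was 0 without D2 and D11, 1 without D2, D11 and D4 (an alternative chosen after seeing the data), 3 at the threshold in the methods and 1 to 3 with each array left out in turn. In advanced carcinoma against normal (0) it was 1 with array weights, with only the arrays compared, at the threshold in the methods and without D2, D11 and D4, and 0 to 1 with each array left out. In hyperplasia against normal (0) it was 1 at the threshold in the methods. In carcinoma against hyperplasia (1) it was 0 with ANOVA contrasts or only the arrays compared, 2 with array weights, and 0 to 1 with each array left out. In advanced carcinoma against hyperplasia (1) it was 2 with median centring, quantile normalization, dim genes removed, robust limma-trend or the threshold in the methods, 3 with array weights or without D2, D11 and D4, 5 with only the arrays compared, and 0 to 4 with each array left out. These settings also called different numbers of the 19938 genes. In advanced carcinoma against hyperplasia they were 6237 with array weights, 4684 with only the arrays compared and 5017 without D4, beside 2897. In advanced carcinoma against normal they were 3908, 2852 and 3143 in the same order, beside 1118. In carcinoma against hyperplasia array weights gave 2937, beside 1845. In CAFs the threshold in the methods gave 2426, beside 4961. The causes were not tested. Counts over all genes moved as well. Over all genes, the number called in CAFs (4961) ranged from 2426 to 6143 over the alternatives, in advanced carcinoma against normal (1118) from 27 to 3908, in carcinoma against normal (187) from 0 to 1391, in carcinoma against hyperplasia (1845) from 5 to 2937 and in advanced carcinoma against hyperplasia (2897) from 892 to 6237. In hyperplasia against normal and in advanced carcinoma against carcinoma (0 each) it reached 200 at the threshold in the methods and 1301 with array weights. No member called in any setting had the opposite sign to its main difference. Tnn has no value with dim genes removed. No paired analysis was possible because the array names are not shared between the groups.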
